A study of Mus musculus with 6 samples.

Results

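Cajal-Retzius cells were examined through 8 genes that mark them, Reln, Trp73, Lhx1, Lhx5, Calb2, Cacna2d2, Ndnf and Ebf3, in bulk RNA-Seq of mouse lateral cortex at embryonic day 12.5. The genes were listed by name, and all 8 were found among the 17068 genes of the count table. The 6 libraries came from female embryos of the c57/bl6 strain, 1 library per labelled sample. The 4 controls carried no Cre, controls 1, 2 and 4 with the genotype Foxp1 fl/+ and control 3 with Foxp1 fl/fl. The 2 libraries of the other group are labelled Foxp1 fl/fl;Emx1Cre (Foxp1cKO), so every embryo carried at least one floxed Foxp1 allele, and the comparison asked what the loss of Foxp1, a forkhead transcription repressor, does to the early cortex. The study describes the controls as Cre-negative littermates. Emx1-driven Cre acts in progenitors of the dorsal telencephalon and in the cells born from them, and how many Cajal-Retzius cells recombined is not given in the sources used here.

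Cajal-Retzius cells are among the earliest neurons of the cortex. They are born at the edges of the cortical sheet, in the cortical hem, the septum and the border between pallium and subpallium, and spread beneath the pia through the marginal zone. There they secrete reelin, which binds the receptors encoded by Vldlr and Lrp8 on radial glia and migrating neurons and acts through the adaptor Dab1 to order the cortical layers. Most members are not specific to these cells: Calb2 also marks some interneurons, Ebf3 other early neurons, and Lhx1 and Lhx5 parts of the diencephalon.

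Each library held 50076008 to 78346979 counts on genes, and 3 counts, the smallest amount taken as detectable, corresponded to 0.0381 to 0.0596 CPM (counts relative to the library total after scaling by edgeR's TMM factors, the unit of level used throughout). The lowest count of any member in any library was 224, far above that floor. Foxp1 itself had 59.7, 60.8, 71.2 and 79.1 CPM in controls 1 to 4, and 83.2 and 76.8 CPM in the libraries labelled Foxp1cKO 1 and 2. The targeted gene was therefore not lower there, and a gene-level count takes in exons outside the floxed ones too. For this reason the groups are called by their labels, and each direction rests on those labels. The labels do not say whether the embryos of a group share a litter, and litter was not in the fit. The p-values set the group difference against the spread between these libraries. An effect of litter cannot be told apart from an effect of group here.

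No member passed the threshold between the groups (adjusted p under 0.05, edgeR quasi-likelihood test over all genes): the count was 0 of 8, where 26 of 17068 genes, 0.152%, passed. DESeq2 called 1 member, Ndnf, and 2.97% of all genes it tested, and limma called 0 members and 0.158% of all genes. All 8 members had a higher fitted level in the libraries labelled Foxp1cKO, as did 49.3% of all genes. Their median log2 fold change was 0.438, beside -0.00445 over all genes. At an unadjusted p under 0.05, 3 members, Ndnf, Ebf3 and Cacna2d2, were higher, against 6.53% of all genes. This count of 3 became 1 without control 1 and 4 without control 2, and stayed at 3 without control 3 or 4. Over all genes, in either direction, 2224 had such a p. That number was 1454, 1398, 3009 and 3252 without controls 1, 2, 3 and 4. In 3 members, Ndnf, Ebf3 and Lhx1, both libraries labelled Foxp1cKO lay above all 4 controls, which 11.5% of all genes did. Leaving out a library can only keep or raise that count. It was 7 of 8 without Foxp1cKO 1 (20.1% of all genes) and 5 of 8 without control 2 (12.9% of all genes). With any other library left out it was 3 or 4 (13.1% to 22.4% of all genes). In bulk tissue, more cells of a type and more RNA per cell cannot be told apart.

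**Figure D1:**
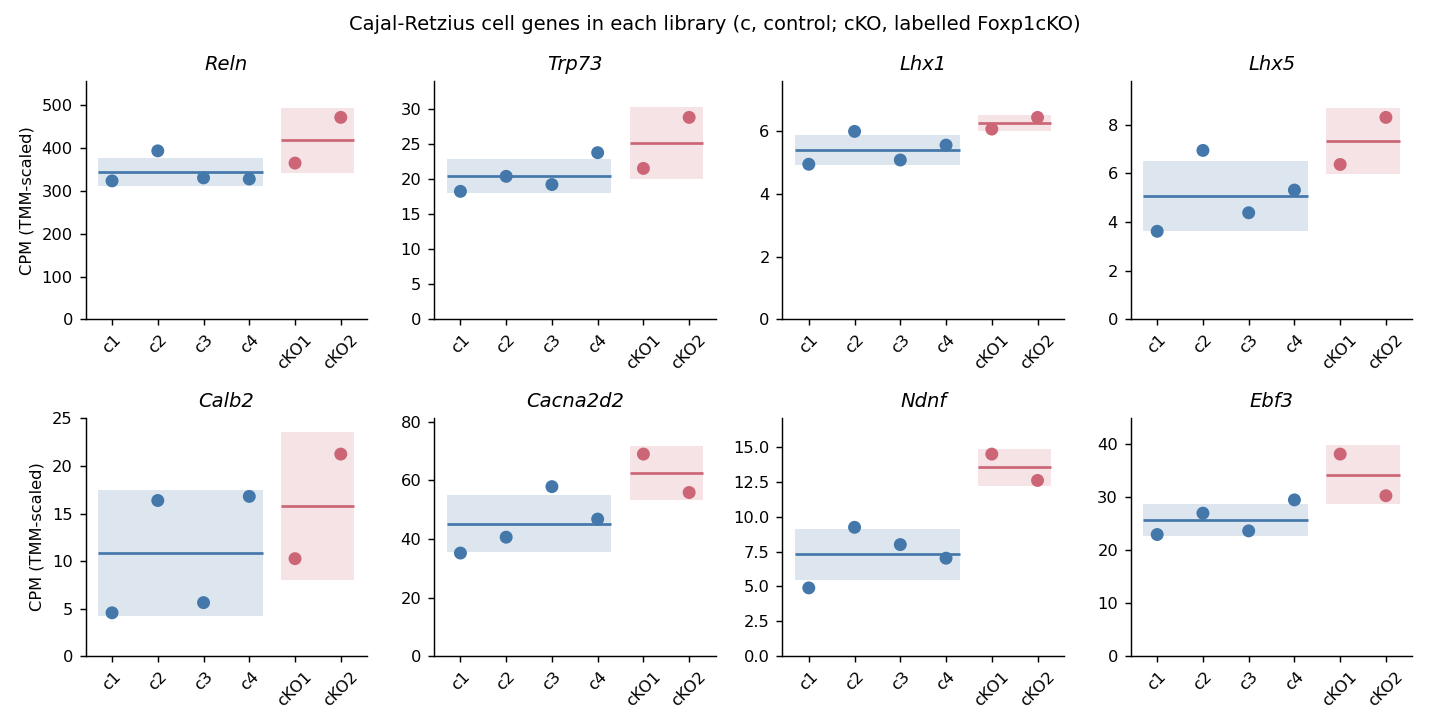
Level of each Cajal-Retzius cell gene in CPM on a linear axis from 0, with 1 point per library (c1 to c4, controls; cKO1 and cKO2, libraries labelled Foxp1cKO), a line at the group mean and a band of 1 SD. Control 1 is the lowest point in every panel, and the groups do not overlap for Lhx1, Ndnf and Ebf3.

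Reln, which encodes the secreted glycoprotein reelin, was by far the most abundant member. Counted per kilobase of exon it had 14.5 ± 1.4 CPM per kb in the controls (SD, n = 4), 2.33 times the mean of the next gene, and it stood at percentile 78.5 of all genes on that scale. Calb2 followed with 6.22 ± 3.82 and Cacna2d2 with 5.67 ± 1.22 CPM per kb, and the order of this pair was not fixed, Calb2 being the higher in 2 of the 4 controls. Below them came Trp73 at 3.69 ± 0.434, Ebf3 at 2.79 ± 0.33, Lhx5 at 1.88 ± 0.532, Lhx1 at 1.32 ± 0.117 and Ndnf at 0.721 ± 0.182 CPM per kb. Each of these ranked below its neighbour above in 4 of 4 controls. Among the libraries labelled Foxp1cKO the order of the means was the same, and only 2 neighbouring pairs changed places in 1 of the 2 libraries, Calb2 with Cacna2d2 and Trp73 with Ebf3. On this scale 3 members, Reln, Calb2 and Cacna2d2, lay above the median gene.

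The Reln gene (ENSMUSG00000042453.14) lies on chromosome 5, 21884454 to 22344702, on the minus strand (GRCm38, the assembly also called mm10). Sequences upstream of the starts are shown to let the reader see what kind of promoter these genes have. They are the 250 bases before a RefSeq start (GRCm38.p6), read 5′ to 3′ on the gene's strand, with the GC box GGGCGG, or CCGCCC on the other strand, in capitals. Of the 8 members, 5 had an entry with 6 starts, of which 3 genes with 4 starts are printed: Reln at chr5:22344706-22344955, Ebf3 at chr7:137314446-137314695, and the upstream and internal starts of Trp73 at chr4:154139876-154140125 and chr4:154097174-154097423.

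Reln: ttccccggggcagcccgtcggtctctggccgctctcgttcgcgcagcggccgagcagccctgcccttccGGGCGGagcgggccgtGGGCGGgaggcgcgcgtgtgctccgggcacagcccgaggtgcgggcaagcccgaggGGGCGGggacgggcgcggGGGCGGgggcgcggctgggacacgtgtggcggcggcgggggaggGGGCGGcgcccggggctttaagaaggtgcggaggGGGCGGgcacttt
Ebf3: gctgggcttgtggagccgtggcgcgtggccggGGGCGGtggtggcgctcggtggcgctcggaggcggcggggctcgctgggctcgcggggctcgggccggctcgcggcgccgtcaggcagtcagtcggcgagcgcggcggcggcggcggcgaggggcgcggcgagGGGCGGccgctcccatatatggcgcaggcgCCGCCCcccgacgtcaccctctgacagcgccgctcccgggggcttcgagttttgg
Trp73, upstream start: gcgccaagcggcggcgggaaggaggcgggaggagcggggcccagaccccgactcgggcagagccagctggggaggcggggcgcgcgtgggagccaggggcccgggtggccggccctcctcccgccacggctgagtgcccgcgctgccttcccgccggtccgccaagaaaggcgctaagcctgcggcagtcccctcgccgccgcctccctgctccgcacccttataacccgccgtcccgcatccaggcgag
Trp73, internal start: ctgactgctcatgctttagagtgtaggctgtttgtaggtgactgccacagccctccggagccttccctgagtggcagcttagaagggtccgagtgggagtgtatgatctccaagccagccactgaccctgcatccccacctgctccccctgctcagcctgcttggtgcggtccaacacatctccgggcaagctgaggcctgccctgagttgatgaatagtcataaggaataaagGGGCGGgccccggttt

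The Reln window was 80.0% G or C and held 37 CpG dinucleotides and 6 GC boxes, where the median window of 32851 RefSeq starts was 52.4% G or C with 6 CpG. The Ebf3 window was alike, at 80.0% with 43 CpG and 3 GC boxes. The windows of Cacna2d2 (74.4%, 34 CpG) and Lhx1 (64.8%, 26 CpG) were CpG-rich as well. A GC box stood in 4 of the 6 member windows and in 32.7% of all windows. The letters TGTTTA, a core that forkhead proteins bind, or TAAACA on the other strand, were in 0 of the 6 member windows and in 12.0% of all windows, which says only that these letters are not in these 250 bases.

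Reln had 323, 393, 330 and 328 CPM in controls 1 to 4, and 365 and 471 CPM in the libraries labelled Foxp1cKO 1 and 2. Control 2 stood apart from the other controls and above the first of these libraries, so the groups overlapped. The fitted log2 fold change was 0.28 (standard error 0.13, 95% interval -0.02 to 0.59, adjusted p = 0.409, edgeR). Most of it came from 1 library: without Foxp1cKO 2 it was 0.0687, and without Foxp1cKO 1 it was 0.456.

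Trp73 (ENSMUSG00000029026.16, chromosome 4, 154056253 to 154140208, minus strand) encodes p73, a relative of p53 on which Cajal-Retzius cells depend for survival. Its upstream start gives the full-length TA form and its internal start the shorter ΔN form, and a count per gene does not separate them. The starts differ in sequence: the upstream window was 77.2% G or C with 31 CpG, the internal one 58.4% with 6 CpG. The gene had 18.3, 20.4, 19.2 and 23.8 CPM in controls 1 to 4, and 21.5 and 28.8 CPM in the libraries labelled Foxp1cKO 1 and 2. Control 4 exceeded the first of these libraries. The log2 fold change was 0.30 (standard error 0.156, interval -0.07 to 0.67, adjusted p = 0.453, edgeR), and 0.0602 without Foxp1cKO 2 or 0.496 without Foxp1cKO 1. Foxp1cKO 2 was the highest and control 1 the lowest library for Trp73 and Reln alike, while the order of the libraries between them differed.

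Lhx1 (ENSMUSG00000018698.15, chromosome 11, 84518284 to 84525535, minus strand) and Lhx5 (ENSMUSG00000029595.9, chromosome 5, 120431699 to 120441223, plus strand) encode related LIM-homeodomain factors that mark Cajal-Retzius cells from early on. Lhx1 had 4.94, 5.99, 5.08 and 5.55 CPM in controls 1 to 4, and 6.06 and 6.43 CPM in the libraries labelled Foxp1cKO 1 and 2. The latter were above every control, but the lower of them exceeded control 2 by little, and the log2 fold change of 0.21 (standard error 0.157, interval -0.16 to 0.58, adjusted p = 0.588, edgeR) was the smallest of the 8. Lhx5 had 3.62, 6.94, 4.38 and 5.31 CPM in the controls and 6.36 and 8.29 CPM in the other libraries, so control 2 lay between those 2. Its log2 fold change was larger, at 0.54, with a larger error (standard error 0.275, lower end of the interval -0.11, adjusted p = 0.451, edgeR), and it was 0.312 without Foxp1cKO 2 and 0.713 without Foxp1cKO 1. Exons of Lhx5 overlap those of Gm27199, an antisense gene, and the strand setting of the counting is not given, so the value of Lhx5 is uncertain. Gm27199 had 1.52 to 2.70 CPM in the controls and 4.41 and 4.38 CPM in the libraries labelled Foxp1cKO (log2 fold change 1.02, standard error 0.246, adjusted p = 0.242, edgeR). Exons of Reln, Trp73, Cacna2d2 and Ebf3 also overlap an annotated antisense gene, none of which was analysed here, so the same uncertainty applies to these 4.

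Ebf3 (ENSMUSG00000010476.14, chromosome 7, 137193673 to 137314445, minus strand) encodes a helix-loop-helix factor of the EBF family, which acts in neuron differentiation. It had 23.0, 27.0, 23.7 and 29.5 CPM in controls 1 to 4, and 38.2 and 30.3 CPM in the libraries labelled Foxp1cKO 1 and 2. The groups did not overlap, though the second of these libraries was just above control 4. The log2 fold change was 0.41 (standard error 0.141, interval 0.08 to 0.74, adjusted p = 0.32, edgeR), and 0.233 without Foxp1cKO 1. Its paralogs Ebf1 and Ebf2 had values of 0.46 (standard error 0.561) and 0.45 (standard error 0.269), with groups that overlapped for both.

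Calb2 (ENSMUSG00000003657.9, chromosome 8, 110137502 to 110168210, minus strand) encodes calretinin, a calcium-binding protein. It was the most variable member. Controls 1 and 3 had 4.55 and 5.63 CPM, controls 2 and 4 had 16.4 and 16.8 CPM, and the libraries labelled Foxp1cKO 1 and 2 had 10.25 and 21.25 CPM. The controls thus formed a low and a high pair, and the first of the Foxp1cKO libraries fell between them. The highest control was 3.69 times the lowest, more than in 94.9% of all genes. The coefficient of biological variation fitted by edgeR was 0.483, against 0.21 for genes of like abundance. The log2 fold change of 0.54 had an interval from -0.85 to 1.94 (standard error 0.591, adjusted p = 0.731, edgeR), so a change of either sign lies within it. It was -0.0955 without Foxp1cKO 2 and 0.971 without Foxp1cKO 1, and ran from 0.272 (without control 1) to 0.836 (without control 4) when a control was left out.

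Cacna2d2 (ENSMUSG00000010066.15, chromosome 9, 107399612 to 107529343, plus strand) encodes an auxiliary subunit of voltage-gated calcium channels. It had 35.2, 40.6, 57.8 and 46.8 CPM in controls 1 to 4, and 68.95 and 55.84 CPM in the libraries labelled Foxp1cKO 1 and 2. Control 3, the control with 2 floxed alleles, lay above the second of them, so the groups overlapped. The log2 fold change was 0.47 (standard error 0.196, interval 0.01 to 0.93, adjusted p = 0.378, edgeR). It was 0.308 without Foxp1cKO 1 and 0.597 without control 3.

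Ndnf (ENSMUSG00000049001.5, chromosome 6, 65671590 to 65712326, plus strand), which encodes a secreted neurotrophic factor, separated the groups most clearly. It had 4.892, 9.238, 7.999 and 7.023 CPM in the controls, and 14.5 and 12.6 CPM in the libraries labelled Foxp1cKO 1 and 2, both well above the highest control. The means were 7.29 ± 1.84 CPM (SD, n = 4) and 13.5 ± 1.33 CPM (SD, n = 2), which differed by more than either SD. The log2 fold change was 0.89, a fold of 1.86 (standard error 0.242, interval 0.32 to 1.47, adjusted p = 0.266, edgeR). DESeq2 gave 0.896 with an adjusted p of 0.0296, past the threshold. Over the 14 alternatives the log2 fold change stayed between 0.702 and 1.03, with an adjusted p between 0.0296 and 0.885 (edgeR, DESeq2 or limma).

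**Figure D2:**
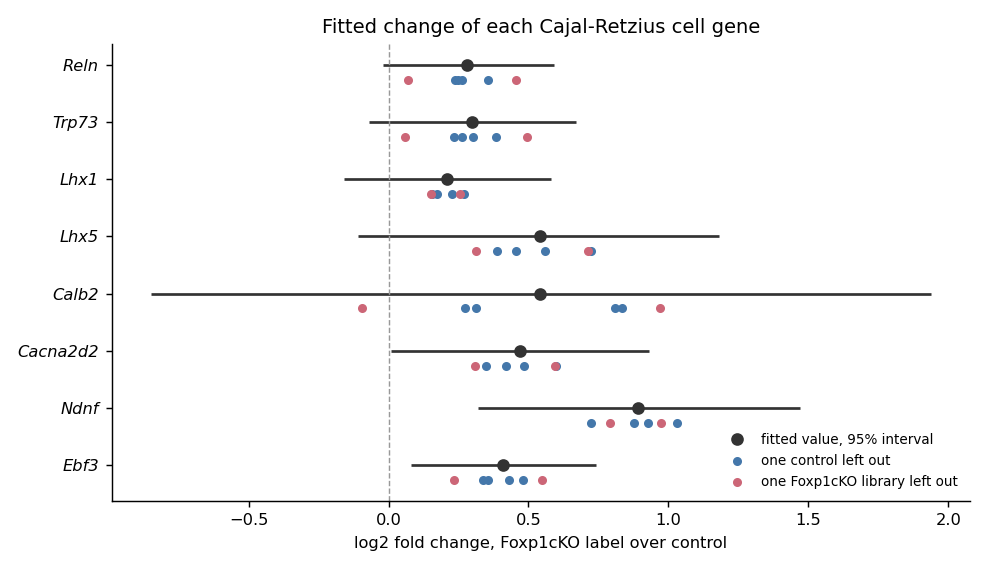
Fitted log2 fold change (libraries labelled Foxp1cKO over controls) of each Cajal-Retzius cell gene, with its 95% interval as a line, and below it the same value with 1 control or 1 Foxp1cKO library left out. The intervals of Cacna2d2, Ndnf and Ebf3 lie above 0, and Calb2 alone falls below 0 when a library is left out.

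The members ordered the libraries in a shared way. Control 1 was the lowest of the 6 libraries in 8 of 8 members, where it was the lowest in 13.0% of all genes. The highest was Foxp1cKO 2 for Reln, Trp73, Lhx1, Lhx5 and Calb2, and Foxp1cKO 1 for Cacna2d2, Ndnf and Ebf3. The same libraries were highest and lowest for all 8 genes in the deposited values of the variance stabilizing transformation (VST). Averaged over the 8 genes, log2 CPM was 3.86, 4.46, 4.13 and 4.39 in controls 1 to 4, and 4.60 and 4.78 in the libraries labelled Foxp1cKO 1 and 2. The group means were 4.21 ± 0.276 (SD, n = 4) and 4.69 ± 0.13 (SD, n = 2).

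How large the difference was depended on the control it was taken from. Foxp1cKO 1 exceeded control 1 by a median log2 difference of 0.77 over the members, but control 2 by 0.0476, with 5 of 8 members higher. Foxp1cKO 2 exceeded control 1 by 0.662 and control 2 by 0.319, with 8 of 8 members higher in both cases. Among the controls themselves, controls 2, 3 and 4 exceeded control 1 in 8 of 8 members, by medians of 0.279, 0.174 and 0.396. With control 1 left out, the median log2 fold change of the members was 0.305, and with Foxp1cKO 2 left out it was 0.232. Across all genes these library pairs differed by medians of at most 0.0162 in either direction.

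The profile of Reln over the 6 libraries was closest to that of Lhx1 among the members, with a root-mean-square difference of 0.101 in log2 CPM after each gene was centred, followed by Trp73 at 0.147. Calb2 was the farthest, at 0.708, but this measure also grows with a gene's spread between libraries, which was largest for Calb2. Among the 13204 other genes with a mean of at least 100 counts, those nearest to Reln included Dusp23 (0.0571), Kcnj3 (0.064), Slc1a3 (0.0711) and Dapp1 (0.0724). The 5 nearest to the mean of the members were Mest (0.079), Mfap3l (0.0886), Samd5 (0.0907), Efnb2 (0.0996) and Gpr37 (0.101). These are descriptions over 6 libraries that differ in group as well.

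The receivers of the reelin signal were looked at next. None of 23 listed genes of reelin reception and transduction passed the threshold with edgeR or limma, and 2, Vldlr and Cdh2, had an unadjusted p under 0.05, as 13.0% of all genes did in either direction. Their fitted changes were divided, 12 higher and 11 lower, with a median of 0.004. Both libraries labelled Foxp1cKO lay above all controls in 2 of the 23 genes, beside 11.5% of all genes, and below all controls in 2 others. Vldlr, the receptor for very low density lipoprotein and reelin, had 49.6, 63.9, 75.1 and 36.9 CPM in controls 1 to 4, and 91.0 and 119 CPM in the libraries labelled Foxp1cKO 1 and 2. Both lay above all controls, and edgeR fitted a log2 fold change of 0.90 with a standard error of 0.264 (adjusted p = 0.282; adjusted p = 0.0492 with DESeq2). The other receptor gene, Lrp8, averaged 286 ± 70.4 CPM over 4 controls (± SD) and 261 ± 16.9 CPM over the other 2 libraries, which is less apart than the controls were among themselves. Dab1, the adaptor, had 190 ± 13.8 and 204 ± 8.95 CPM, also with groups that overlapped. Cdh2, which encodes N-cadherin, had 393 ± 29 CPM in the controls and 482 ± 57.4 CPM in the libraries labelled Foxp1cKO (log2 fold change 0.29, adjusted p = 0.331, edgeR). Yes1, a kinase of the Src family, had a log2 fold change of 0.24 with groups that overlapped (adjusted p = 0.45, edgeR).

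Transcription factors tied to the fate of these cells gave no call. Of 28 listed, 24 were measured, and 0 passed with edgeR, DESeq2 or limma. An unadjusted p under 0.05 was found for 0 of them, against 13.0% of all genes in either direction. Fitted changes were higher for 14 and lower for 10, with a median of 0.071. Tbr1, shared by Cajal-Retzius and other early cortical neurons, averaged 368 ± 98.2 CPM over 4 controls (± SD) and 321 ± 25.1 CPM over both Foxp1cKO-labelled libraries, and Nhlh2 34.4 ± 4.59 and 35.5 ± 5.07 CPM. Both differed by less than the spread between controls. Barhl2 had 4.88 to 12.2 CPM in the controls, and 18.3 and 9.14 CPM in the libraries labelled Foxp1cKO 1 and 2, so only the first was above them. Of the genes with the smallest p in the list, Zic4 had 17.9 ± 12.9 and 6.34 ± 3.43 CPM with groups that overlapped, Lhx9 47.9 ± 10.7 and 64.6 ± 22.5 CPM, and Trp53, the relative of Trp73, 111 ± 9.16 and 96.5 ± 2.11 CPM, with both libraries labelled Foxp1cKO just below all controls (adjusted p = 0.409, edgeR).

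Genes of the regions where Cajal-Retzius cells arise did not share one direction. Of 13 cortical hem genes 11 were measured, 8 lower and 3 higher, with a median of -0.668. None of the 11 hem genes passed with edgeR, DESeq2 or limma. An unadjusted p under 0.05 was found for 2, Wnt5a and Rspo2, as for 13.0% of all genes in either direction. Wnt5a, a secreted Wnt ligand, averaged 8.64 ± 1.43 CPM over 4 controls and 6.12 ± 0.0537 CPM over both Foxp1cKO-labelled libraries, the groups not overlapping (log2 fold change -0.50, adjusted p = 0.354, edgeR). The share of all genes with both of these libraries below all controls is not given here. Rspo2, an enhancer of Wnt signalling, was low throughout, at 0.329 to 1.69 CPM in the controls and 0.258 and 0.237 CPM in the other libraries, and Wnt2b had 0.372 ± 0.237 and 0.106 ± 0.019 CPM. Wnt3a, another hem ligand, was not analysed here. Over the list, control 3 had the lowest summed level, 23.0 CPM, and controls 1 and 2 the highest, 52.3 and 55.0 CPM, with 32.4 and 32.3 CPM in the libraries labelled Foxp1cKO. Control 1 was thus near the top for this sum, though not for every hem gene, and at the bottom for all 8 members.

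Of 10 genes of the pallial-subpallial border and the septum, 9 were measured, 6 higher and 3 lower, with a median of 0.161. None passed with edgeR, DESeq2 or limma, and 1, Nrg1, had an unadjusted p under 0.05, as 13.0% of all genes did in either direction. Nrg1, which encodes neuregulin 1, had 90.2 ± 19.8 and 125 ± 6.79 CPM (log2 fold change 0.47, adjusted p = 0.356, edgeR). For Nrg1 both libraries labelled Foxp1cKO lay above all controls, as in 11.5% of all genes. Dbx1, which marks progenitors that give rise to Cajal-Retzius cells of the border and septum, had 1.60 to 2.46 CPM in the controls, and 3.80 and 1.82 CPM in the libraries labelled Foxp1cKO 1 and 2. Fgf15 (3.86 to 14.5 CPM in the controls, 19.5 and 13.6 CPM in the other libraries) and Fgf17 (2.29 ± 3.66 and 0.463 ± 0.132 CPM), which encode growth factors, had groups that overlapped, and control 2 alone, at 7.77 CPM, held most of the Fgf17. Summed over the list, control 1 was again the lowest, with 140.2 CPM, and the other controls had 153.5 to 196.6 CPM. The libraries labelled Foxp1cKO 1 and 2 had 212.8 and 206.6 CPM, more than any control. Nrg1 alone gave 121 and 130 CPM of these sums, and 72.1 to 118 CPM in the controls. No other measured gene of the list separated the groups, so the higher sums do not describe the list as a whole.

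The cues that spread Cajal-Retzius cells over the cortex were described last. Of 15 listed genes 14 were measured, 10 higher and 4 lower, with a median of 0.15, and none passed with edgeR, DESeq2 or limma. Of these, 1, Ephb3, an ephrin receptor, had an unadjusted p under 0.05, as 13.0% of all genes did in either direction. Ephb3 had 12.4 ± 1.51 CPM over 4 controls and 17.1 ± 0.447 CPM over both Foxp1cKO-labelled libraries, the groups not overlapping (log2 fold change 0.46, adjusted p = 0.289, edgeR). Sema3e, a semaphorin, had 2.42 to 4.62 CPM in the controls and 4.85 and 6.25 CPM in the other libraries, and Efnb1, an ephrin, 261 ± 33.9 and 315 ± 24.2 CPM; for both the groups did not overlap. Cxcl12, the chemokine that meninges release, had 41.5 ± 12.4 and 32.4 ± 14.2 CPM, and its receptor gene Cxcr4 had 18.7 ± 1.12 and 20.0 ± 2.34 CPM, with overlapping groups for both.

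**Figure D3:**
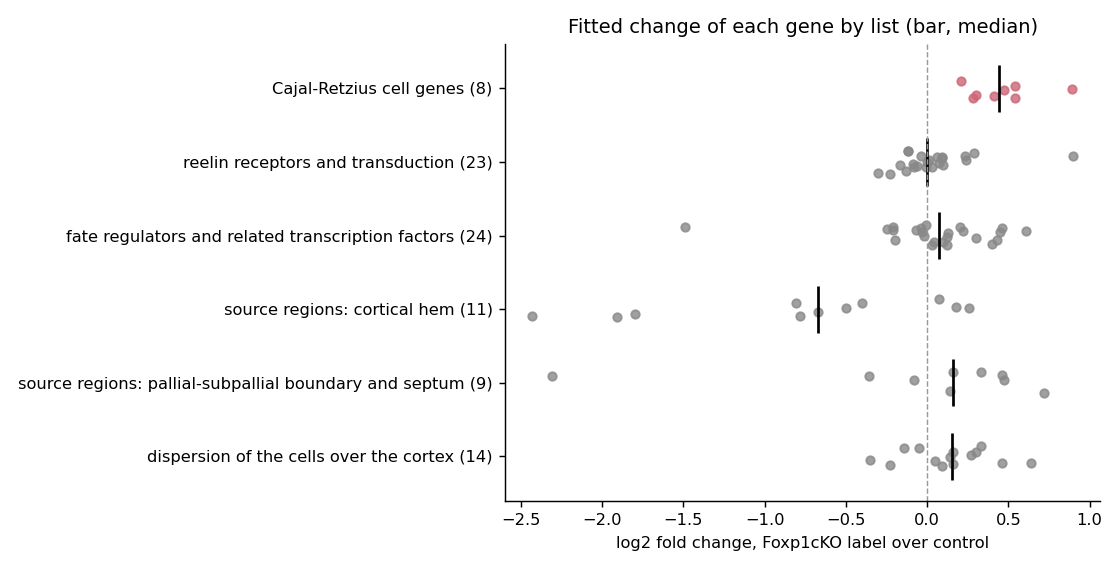
Fitted log2 fold change (libraries labelled Foxp1cKO over controls) of each measured gene, 1 point per gene with random vertical offset, for the Cajal-Retzius cell genes and 5 related lists, with the number of genes in parentheses and the median as a bar. The 8 members all lie above 0, the reelin genes are centred near 0 and the hem genes extend to -2.43.

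Other cells of the dissected piece were followed by their markers. As for the mean over the members, control 1 was the lowest of the 6 libraries for the summed ventral telencephalon list. It was also the lowest for the choroid plexus list, but only just, at 8.86 CPM against 8.95 and 9.01 CPM in controls 3 and 2. For the meningeal and endothelial lists control 1 was instead the highest library. Foxp1cKO 2 and then Foxp1cKO 1 were the highest for the summed red cell list, as for the mean over the members. The 9 meningeal genes summed to 615 CPM in control 1, the highest, and 132 CPM in control 3, the lowest, with 192 and 413 CPM in the libraries labelled Foxp1cKO 1 and 2. The 12 cortical neuron genes summed to 3332 to 5845 CPM in the controls and to 4310 and 4459 CPM in the other libraries, within the range of the controls. The 9 radial glia genes (2532 to 3026 CPM in the controls) likewise had 2942 and 2859 CPM. The 12 ventral telencephalon genes summed to 250, 388, 951 and 286 CPM in controls 1 to 4, and to 577 and 429 CPM in the libraries labelled Foxp1cKO 1 and 2. Control 3, highest for these genes, was also the highest control for Cacna2d2, but for no other member. Gad1, which makes GABA, had 158 CPM there, against 37.2 to 73.2 CPM in the other 5 libraries.

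The diencephalon list, of which 4 of 10 genes were measured, summed to 51.8 to 82.0 CPM in the controls, and to 109 and 68.2 CPM in the libraries labelled Foxp1cKO 1 and 2. Sim1, a hypothalamic factor, had 2.90 CPM in the first of these and 0.0807 to 0.274 CPM in the other 5 libraries. The 9 red cell genes summed to 3544 CPM in control 4 and to 3849 and 4143 CPM in the libraries labelled Foxp1cKO, against 1100 to 1451 CPM in controls 1 to 3. Most of the sum was Hbb-y, an embryonic globin gene, at 754 to 2340 CPM in the controls and 2450 and 2740 CPM in the other libraries. Fitted changes were above 0 for 8 of the 9 genes, and Hbb-bs, an adult globin gene, had -0.17. The 7 endothelial genes summed to 131 to 202 CPM in the controls and to 154 and 191 CPM in the other libraries, and the 3 measured choroid plexus genes to 8.86 to 11.9 and to 10.3 and 11.8 CPM. With edgeR 0 genes of these 8 marker lists passed, and with limma 0. DESeq2 called Notch1 (log2 fold change 0.46), Sim1 (3.39), Pecam1 (0.66) and Hba-a1 (1.12), and 3, 2, 1 and 3 genes of the radial glia, diencephalon, endothelial and red cell lists had an unadjusted p under 0.05, to be read against the same 13.0% of all genes. The part of these cells in the members' values was not tested.

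**Figure D4:**
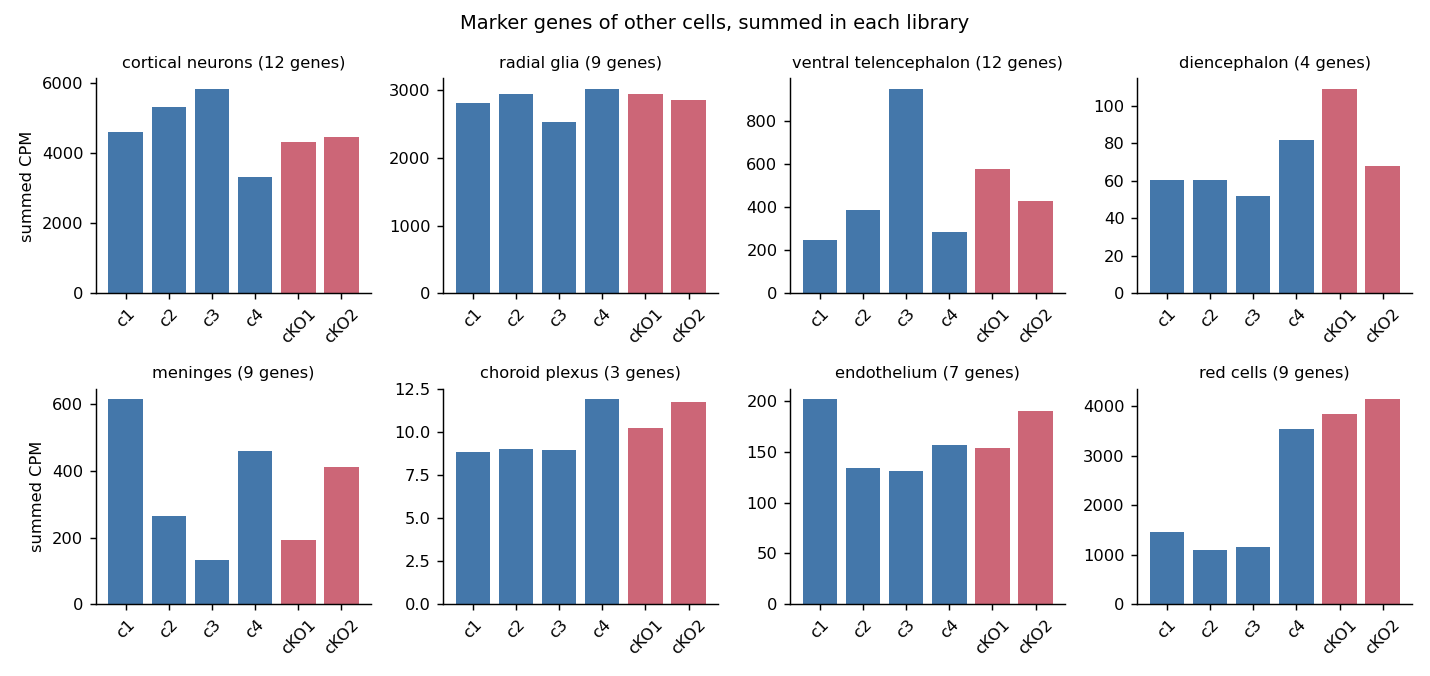
Summed CPM of the measured marker genes of 8 other cell types or regions, 1 bar per library (c1 to c4, controls; cKO1 and cKO2, libraries labelled Foxp1cKO) on axes that start at 0. The red cell sum is high in control 4 and in both Foxp1cKO libraries, the sum of ventral telencephalon genes in control 3 and meningeal genes in control 1.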

How the data were processed

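RNA of E12.5 lateral cortex was sequenced in 6 libraries (4 controls, 2 labelled Foxp1cKO). Alignment by the authors used STAR and mm10, and HTSeq 0.9.1 in union mode gave counts per gene (strand setting not given in the sources used here); weakly detected genes were dropped. These deposited counts are whole numbers without normalization. VST values on a log2-like scale, likewise deposited, equalled a blind DESeq2 transformation of the counts to within 1.1e-10. Conditions came from the labels. The study modelled litter, which the labels do not give.

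All 17068 genes were fitted in R 4.3.3 with edgeR 4.0.16 (TMM, quasi-likelihood test, group alone, Benjamini-Hochberg adjustment over all genes, threshold 0.05). Intervals are at 95% and log2 CPM used a prior count of 2. CPM per kb divides CPM by the exon length in GENCODE M21, where 21 identifiers were not found. DESeq2 1.42.0 and limma 3.58.1 were alternatives. The tests were tried on simulated data. Between replicates chi-square per gene ranged from 25.9 to 193, so none was a duplicate. With 4 libraries against 2 an exact permutation test cannot give a two-sided p below 0.133, and none was used. Floors cover counting error only.

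The members and lists were chosen with earlier results of these data known. Named genes are the members, Foxp1, 14 genes listed by name, the 3 genes of smallest p in each list and the nearest profiles; of the marker lists only Gad1, Hbb-y, Hbb-bs and the genes DESeq2 called are given. Gm27199, Hbb-bs, Wnt8b and Rspo1 were named after their values were seen. Some genes that this rule names are not reported here.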

Additional observations from a re-analysis of the deposited data

Results flagged for a closer look

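In 3 of 21 sets of 4 control values (the 8 members and 13 summed lists), 1 control stood far from the others by Dixon's criterion, which chance alone meets in about 1 set in 20. Reln was flagged for control 2, at 393 CPM against 323 to 330 CPM in the other controls. The red cell genes were flagged for control 4, at 3544 CPM against 1100 to 1451 CPM. The choroid plexus genes were flagged for control 4 as well, at 11.91 CPM against 8.86 to 9.01 CPM.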

How the results depend on the processing

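Across 14 alternatives the 8 members kept a log2 fold change above 0 in 111 of 112 values. The exception was Calb2, at -0.0955 without Foxp1cKO 2 and 0.971 without Foxp1cKO 1. Ndnf passed with DESeq2, so the count of members past the threshold was 1 there, against 0 otherwise, and 0 with each library left out (0 to 0). The median of the members ran from 0.232 to 0.49 over all alternatives and from 0.232 to 0.482 with a library left out. Genes past the threshold over the whole table numbered 26, but 507 with DESeq2 and 2 to 96 with a library left out (2 without control 2, 96 without control 4, 6 without control 1, and 9 and 3 without Foxp1cKO 1 and 2). Both groups have libraries numbered 1 and 2, and same-numbered libraries' deviations from their group mean correlated at -0.198 and 0.0157. The deviations of the 2 Foxp1cKO libraries mirror each other, so these values cannot decide whether the numbers pair the embryos. With the replicate block 0 genes passed, 0 members among them. At an unadjusted p under 0.05 there were then 5 members, against 3 without the block. Over all 17068 genes, 3027 had such a p with the block and 2224 without it. Controls 3 and 4 have no same-numbered partner, so that fit takes the group difference from libraries 1 and 2 of each group alone. It also leaves fewer residual degrees of freedom than the 4 of the model of group alone. Precision is limited by the number of libraries, not by depth, since every member had at least 224 counts.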
